A study of Drosophila melanogaster with 8 samples.

Results

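The genes described here are the MFS-named transporters MFS3, MFS9, MFS10, MFS12, MFS14, MFS15, MFS16 and MFS17 and the organic cation transporters Orct and Orct2 of Drosophila melanogaster. They were chosen by symbol, and all 10 are present among the 13781 gene symbols of the count table. MFS1 and MFS18 also bear the MFS name and are counted, but are not in this set. The data are RNA-seq of fly heads by a method that reads the 3′ ends of transcripts. Control flies were Actin-gal4/+ (3 libraries), and the knockdown flies were Actin-gal4/+; UAS-rowRNAi1/+ (row_RNAi1, 2 libraries) and Actin-gal4/+; UAS-rowRNAi2/+ (row_RNAi2, 3 libraries). All groups carried Actin-gal4, which drives UAS transgenes in most tissues, and were kept at 25°C in a 12-hour light and 12-hour dark cycle. No UAS insertion is named for the control, so a knockdown and the background of its RNAi line cannot be told apart. The sources used here gave no sex and no age, and do not say whether replicate libraries are separate fly collections, so p-values measure a spread between libraries that may be technical.

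Major facilitator proteins form one of the largest families of membrane carriers and move small solutes either down their own gradient or coupled to an ion. The SLC22 branch, to which Orct and Orct2 belong, carries organic cations, anions and zwitterions, and in the fly head such carriers take part in recycling the photoreceptor transmitter histamine. The SLC17 branch holds phosphate-coupled and vesicular anion carriers such as the vesicular glutamate transporter, and MFS3, MFS9, MFS10, MFS12, MFS14 and MFS15 are usually placed with it. MFS16 is placed with the SLC37 sugar-phosphate and glycerol-3-phosphate carriers.

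The knockdowns address which transcripts in the head depend on Row, a chromatin-bound protein with zinc fingers. The libraries held 6230666 to 18046699 counts, and the row_RNAi1 libraries were the deepest. Levels are given as CPM, counts scaled to a common library total with TMM factors, and means as mean ± SD over 3 control, 2 row_RNAi1 and 3 row_RNAi2 libraries. The row transcript itself ranged over 12.1 to 14.9 CPM in controls, 4.22 to 5.93 CPM in row_RNAi1 and 5.97 to 8.28 CPM in row_RNAi2, or 36.9% and 54.0% of the control mean. Its log2 fold change averaged over the lines was -1.17 (SE 0.15, adjusted p = 1.80e-05, edgeR), and permuting the 8 libraries exactly (two-sided) gave p = 0.0179, the smallest that 56 arrangements allow.

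Orct2, Orct and MFS14 fell strongly in both lines, MFS3 and MFS9 had the largest increases of the 9 tested members, MFS10, MFS15 and MFS16 rose by less, each called in at least 1 line, and MFS17 was not called. Calls are genes whose p, adjusted by Benjamini and Hochberg's method over 9442 genes, was under 0.05 in edgeR's quasi-likelihood test. The 10 genes were put together with earlier results of these libraries known, so calls and p-values here describe the members and are not independent evidence. Of the 9 members tested, 7 were called in row_RNAi1, where 21.2% of all tested genes were called. They were 4 higher (11.2% of all tested genes) and 3 lower (10%), and 4 were called past 2-fold (5.64%). In row_RNAi2 6 were called (10.8%), 3 higher (5.49%), 3 lower (5.34%) and 3 past 2-fold (2.67%). Scaled to total counts alone, row_RNAi2 gave 1 higher and 3 lower, where 10.2% of all tested genes were called. On average over the lines 8 were called (17.8%), 5 higher (9.24%), 3 lower (8.56%) and 4 past 2-fold (3.78%). MFS18, which was left out of the set, was tested and not called on average (adjusted p = 0.126, edgeR). The median log2 fold change of the 9 members was 0.32, beside -0.01 for all tested genes. The lines share their 3 control libraries, so their calls are not separate evidence. All 5 knockdown libraries lay above all controls for 4 members (8.90% of all tested genes) and below them for 3 (8.29%), together an arrangement without overlap that 17.2% of all tested genes had.

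**Figure D1:**
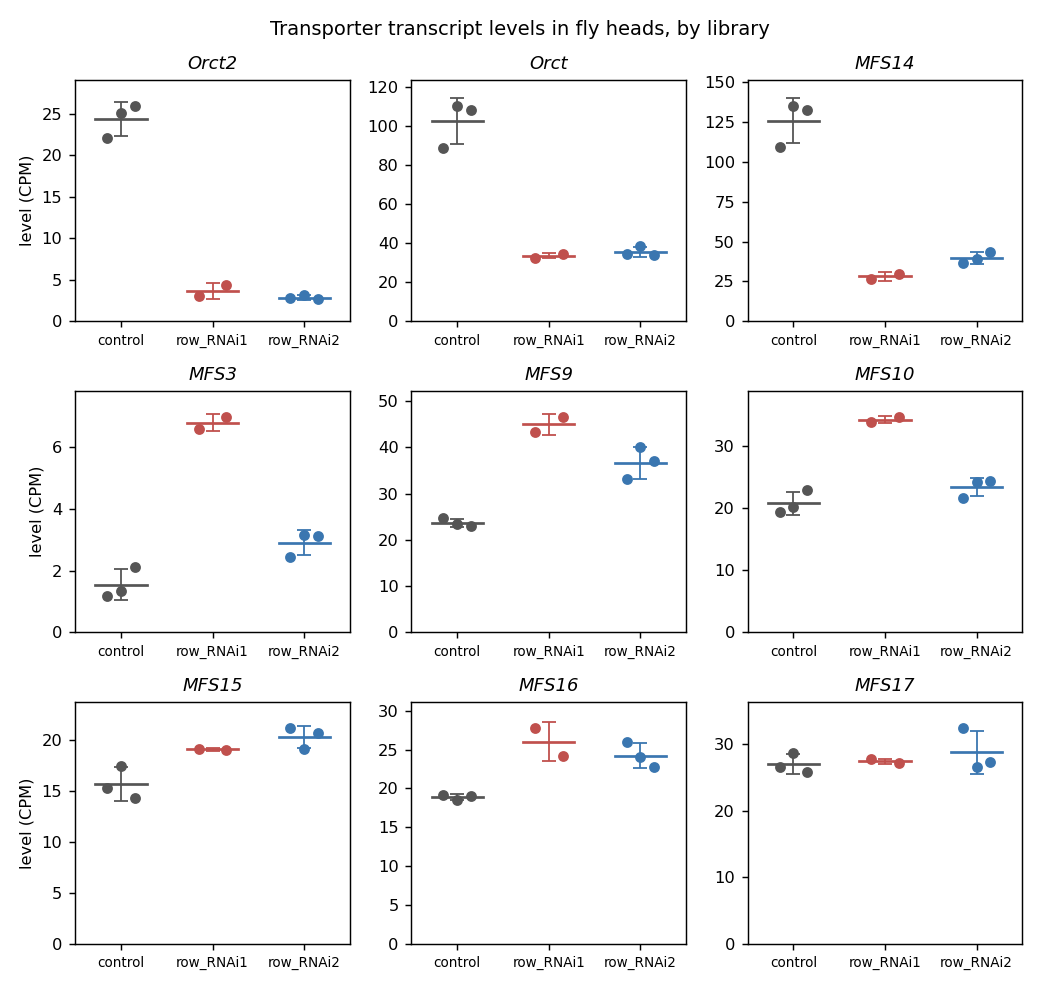
Level of each of the 9 tested transporter genes in CPM (vertical axis, from 0) in the 8 fly head libraries. Points are libraries, horizontal lines are group means and bars are SD (n = 3, 2 and 3). Knockdown points lie below the controls for Orct2, Orct and MFS14, above them for MFS3, MFS9, MFS15 and MFS16, and overlap them for MFS10 and MFS17.

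Orct2, also named calderón, is an organic cation transporter required for the growth of fly tissues. It stood at 22.1, 25.1 and 26.0 CPM in the controls (168, 243 and 233 counts). The row_RNAi1 libraries had 3.03 and 4.39 CPM (50 and 76 counts), and the row_RNAi2 libraries 2.79, 3.17 and 2.67 CPM (17, 35 and 30 counts). The knockdown libraries were all far below the controls, and the lines overlapped each other. The means were 24.4 ± 2.07, 3.71 ± 0.965 and 2.88 ± 0.26 CPM in control, row_RNAi1 and row_RNAi2 heads, or 15.2% and 11.8% of the control mean. The log2 fold changes were -2.71 (SE 0.17, adjusted p = 1.83e-09, edgeR) and -3.08 (SE 0.17, adjusted p = 1.59e-09). Averaged over the lines, only 19 of the 9442 tested genes had a lower fitted log2 fold change than the -2.89 of Orct2.

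Orct, its neighbour on the chromosome and a relative of the SLC22 carnitine and cation transporters, also fell in both lines. Its levels were 89.0, 111 and 108 CPM in controls, 32.6 and 34.4 in row_RNAi1, and 34.3, 38.5 and 34.2 in row_RNAi2. All knockdown libraries lay well below the controls and within a narrow range. The remaining level was 32.7% of the control mean in row_RNAi1 and 34.7% in row_RNAi2. The log2 fold changes were -1.62 (SE 0.10, adjusted p = 2.24e-09, edgeR) and -1.52 (SE 0.09, adjusted p = 3.60e-09).

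MFS14, an SLC17-type gene, fell in both lines and further in row_RNAi1. Its levels were 109.5, 135 and 132 CPM in controls, 26.3 and 29.99 in row_RNAi1, and 36.4, 39.4 and 43.8 in row_RNAi2. The 3 groups did not overlap. The means were 22.4% and 31.7% of the control mean. The log2 fold changes were -2.16 (SE 0.11, adjusted p = 2.49e-10, edgeR) and -1.65 (SE 0.10, adjusted p = 3.22e-09). For Orct2, Orct and MFS14 the call held in each line and on average under all 17 alternatives run for each.

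MFS3, an SLC17-type gene, was near the lower end of what these libraries measure. It had 9, 13 and 19 counts in controls (1.18, 1.34 and 2.12 CPM), 109 and 121 counts in row_RNAi1 (6.60 and 6.99 CPM), and 15, 35 and 35 counts in row_RNAi2 (2.46, 3.17 and 3.11 CPM). The 3 groups did not overlap, with row_RNAi1 highest. Its log2 fold change was 2.12 in row_RNAi1 (SE 0.26, adjusted p = 1.02e-05, edgeR), and the row_RNAi1 mean was 439% of the control mean. In row_RNAi2 the log2 fold change was 0.93 (SE 0.29) and missed the threshold (adjusted p = 0.0529, edgeR). Without control replicate 3 it was 1.24 and passed (adjusted p = 0.0214), and over all alternatives this p ran from 0.0214 to 0.247. In the annotation MFS3 overlaps the non-coding gene lncRNA:CR45717 on the same strand, which was not matched to a counted symbol. Reads of that gene may be counted with MFS3, so the values of MFS3 are uncertain.

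MFS9, another SLC17-type gene, rose in both lines. It stood at 24.7, 23.3 and 23.0 CPM in controls, 43.3 and 46.6 in row_RNAi1, and 33.1, 40.0 and 37.0 in row_RNAi2. Every knockdown library was above every control, and row_RNAi1 was above row_RNAi2. The log2 fold changes were 0.93 (SE 0.09, adjusted p = 3.58e-07, edgeR) and 0.65 (SE 0.09, adjusted p = 4.24e-05), and both calls held under all alternatives run.

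MFS10, also SLC17-type, rose in row_RNAi1. It stood at 19.3, 20.1 and 22.9 CPM in controls, 33.8 and 34.7 in row_RNAi1, and 21.6, 24.2 and 24.3 in row_RNAi2. The row_RNAi1 libraries stood alone above the others, and row_RNAi2 overlapped the controls. The log2 fold changes were 0.72 (SE 0.09, adjusted p = 1.73e-05, edgeR) in row_RNAi1 and 0.18 (95% interval -0.02 to 0.38, adjusted p = 0.305) in row_RNAi2. In the annotation MFS10 overlaps CG15717 on the same strand, and CG15717 stood at 39.4 ± 4.81, 66.5 ± 1.68 and 48.6 ± 8.42 CPM in control, row_RNAi1 and row_RNAi2 heads. Reads of these 2 genes may not be separated, so the values of MFS10 are uncertain.

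**Figure D2:**
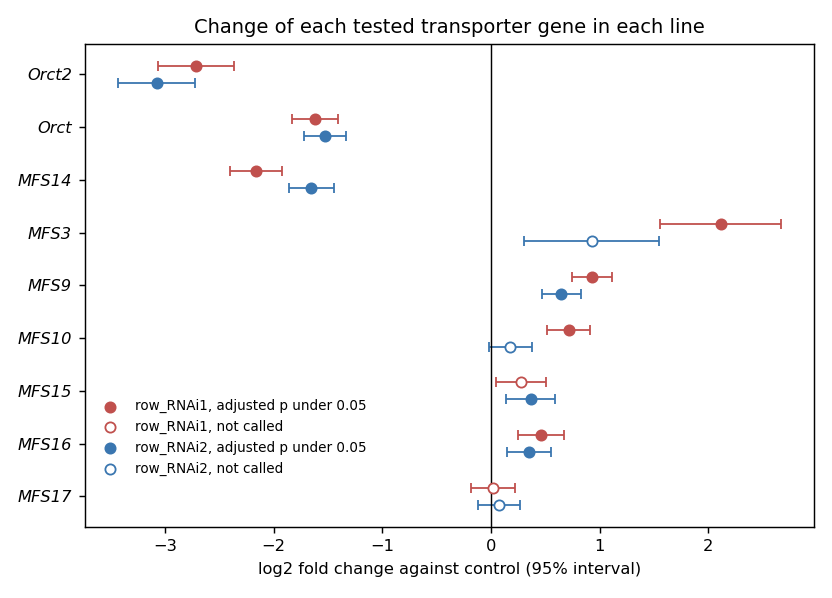
Log2 fold change against control (horizontal axis) of each tested transporter gene in row_RNAi1 (red) and row_RNAi2 (blue), with 95% intervals from the edgeR fit. Filled points passed an adjusted p under 0.05 and open points did not. Orct2, Orct and MFS14 lie at -1.52 or lower in both lines, and MFS3 reaches 2.12 in row_RNAi1.

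MFS15 and MFS16 were slightly higher in both lines. MFS15 had 15.2, 17.5 and 14.3 CPM in controls, 19.1 and 19.0 in row_RNAi1, and 21.2, 19.1 and 20.6 in row_RNAi2. MFS16 had 19.2, 18.5 and 19.0 CPM in controls, 27.8 and 24.2 in row_RNAi1, and 25.9, 24.0 and 22.7 in row_RNAi2. For both genes every knockdown library lay above every control, by small margins. The log2 fold changes of MFS16 were 0.46 (SE 0.10, adjusted p = 0.0022, edgeR) and 0.35 (SE 0.10, adjusted p = 0.0249). Those of MFS15 were 0.28 (SE 0.11, adjusted p = 0.0843, edgeR) and 0.36 (SE 0.10, adjusted p = 0.0324). MFS16 overlaps CG10505, which lies on the other strand, and CG10505 had at most 0.905 CPM in a library.

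Calls of MFS15 and MFS16 in single lines, and that of MFS15 on average, were lost when single libraries were left out. The average log2 fold change of MFS16 was 0.41 (adjusted p = 0.00218, edgeR), and its call held without any single library. It was lost with control replicate 2 and row_RNAi1 replicate 1 both left out, a setting chosen after seeing the data. In row_RNAi2 the edgeR quasi-likelihood adjusted p of MFS16 was 0.0535, 0.0932 and 0.0528 without control replicates 1, 2 and 3, 0.0671 without row_RNAi2 replicate 1 and 0.0765 without replicate 2. In row_RNAi1 it was 0.0676 without row_RNAi1 replicate 1. For MFS15 in row_RNAi2 it was 0.0923 and 0.128 without control replicates 1 and 3, and 0.0736 and 0.0980 without row_RNAi2 replicates 1 and 3. In row_RNAi1, MFS15 passed without control replicate 2 (adjusted p = 0.0472, edgeR). On average over the lines the adjusted p of MFS15 was 0.0222, and it was 0.0821 and 0.118 without control replicates 1 and 3 and 0.0599 and 0.0544 without row_RNAi1 replicates 1 and 2. Over all alternatives the p in row_RNAi2 ran from 0.0185 to 0.109 for MFS16 and from 0.0219 to 0.128 for MFS15.

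MFS17 did not differ detectably, with 26.7, 28.7 and 25.8 CPM in controls, 27.7 and 27.2 in row_RNAi1, and 32.5, 26.6 and 27.3 in row_RNAi2. All 3 groups overlapped. The 95% intervals of its log2 fold change were -0.18 to 0.22 in row_RNAi1 and -0.12 to 0.26 in row_RNAi2. MFS12, an SLC17-type gene, had 1, 1 and 1 counts in controls, 0 and 1 in row_RNAi1, and 2, 4 and 3 in row_RNAi2. It did not pass the filter on low counts and was not tested with it.

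Differences between the lines were tested directly as row_RNAi2 minus row_RNAi1, where 4 of 9 members were called against 11.3% of all tested genes. They were 1 higher (4.98% of all tested genes) and 3 lower (6.33%), with MFS3 alone past 2-fold (2.08%). The log2 differences were -1.19 for MFS3 (SE 0.23, adjusted p = 0.00216, edgeR) and -0.54 for MFS10 (SE 0.09, adjusted p = 0.00064). They were 0.51 for MFS14 (SE 0.11, adjusted p = 0.00516) and -0.28 for MFS9 (SE 0.08, adjusted p = 0.0366). In all 4 the row_RNAi1 libraries were the farther from control. The difference of MFS14 was lost without row_RNAi1 replicate 1 (0.42, adjusted p = 0.124, within a range of 2.01e-05 to 0.124 over its alternatives). That of MFS9 was lost without any single library except row_RNAi2 replicate 2. Its edgeR quasi-likelihood adjusted p was 0.0581, 0.0560 and 0.0627 without control replicates 1 to 3, 0.109 and 0.336 without row_RNAi1 replicates 1 and 2, and 0.0844 and 0.0765 without row_RNAi2 replicates 1 and 3. The range over the alternatives of MFS9 was 0.0271 to 0.336. Orct2 had a difference of -0.36 (95% interval -0.83 to 0.10) and Orct of 0.09 (-0.13 to 0.31), neither past the threshold (adjusted p = 0.358 and 0.664). The residual row level was higher in row_RNAi2, with a log2 difference of 0.54 (SE 0.20) that also missed the edgeR quasi-likelihood threshold (adjusted p = 0.104).

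Orct2 and Orct lie next to each other in tandem, and so do MFS14 and MFS15, in the RefSeq gene order of the Release 6 assembly. Orct2 is followed on the same strand by Orct, and jar, which encodes the motor protein myosin VI, lies head to head with Orct2 on its other side. The level of jar was 33.1 ± 3.01, 35.2 ± 1.91 and 35.3 ± 0.156 CPM in control, row_RNAi1 and row_RNAi2 heads. Its log2 fold change averaged over the lines was 0.09 (SE 0.07, adjusted p = 0.463, edgeR), or 0.00 when scaled to total counts alone. CG13611 (shps), beyond Orct, had at most 0.39 CPM in a library. The 2 adjacent carriers were lower in both lines, and jar on one side was not called.

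In the other pair MFS14 fell, while MFS15, which follows it on the same strand, was at 122% and 130% of its control mean. On the other side of MFS14, beyond the non-coding gene CR44468 with at most 0.33 CPM, lies another SLC17-type gene, CG15096. It rose from control to knockdown, with 332 ± 5.11, 503 ± 7.76 and 419.9 ± 38.8 CPM in control, row_RNAi1 and row_RNAi2 heads. Its average log2 fold change was 0.47 (SE 0.07, adjusted p = 5.29e-05, edgeR).

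**Figure D3:**
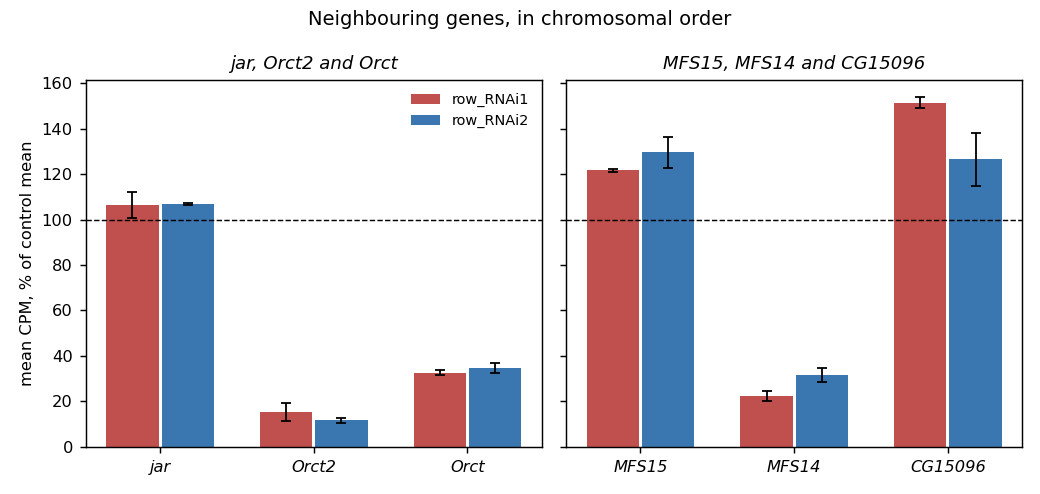
Mean CPM in row_RNAi1 (red) and row_RNAi2 (blue) as a percentage of the control mean (vertical axis, from 0) for 3 genes around Orct2 and 3 around MFS14, in chromosomal order. Bars are SD of the knockdown libraries in the same unit, and the dashed line marks 100%. Orct2, Orct and MFS14 lie at 34.7% or lower, and jar, MFS15 and CG15096 lie above 100%.

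The nearest counted genes on both sides of the 10 members included 16 that are not members. Of these 11 were tested, and on average over the lines 1 rose and 2 fell, against 17.8% of all tested genes. CG15717, which overlaps MFS10, rose by 0.52 (SE 0.10, adjusted p = 0.00104, edgeR), and with all knockdown libraries as 1 group it was not called (0.50, adjusted p = 0.0834). By line, CG15717 was called in row_RNAi1 (0.75, adjusted p = 0.00011, edgeR) and not in row_RNAi2 (0.28, adjusted p = 0.141). CG41378, beside MFS17, fell by 0.81 on the log2 scale (SE 0.14, adjusted p = 0.000361). CG30381 (PIG-X), which overlaps MFS12, fell by 0.64 on the log2 scale (SE 0.21, adjusted p = 0.0436). It was called in neither line alone (adjusted p = 0.0702 in row_RNAi1 and 0.141 in row_RNAi2, edgeR). The call of CG30381 was lost under 12 of 16 alternatives. Its adjusted p was 0.0783, 0.185 and 0.0905 without control replicates 1 to 3, 0.141 and 0.0683 without row_RNAi1 replicates 1 and 2, and 0.0555, 0.0777 and 0.0543 without row_RNAi2 replicates 1 to 3.

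Related transporter genes outside the 10 moved both ways. Of 76 listed relatives among the symbols, 54 were tested, of which 8 rose and 11 fell on average (35.2%, against 17.8% of all tested genes), with a median log2 fold change of -0.08. By line, 10 relatives rose and 12 fell in row_RNAi1 (40.7%, against 21.2% of all tested genes). In row_RNAi2 6 rose and 6 fell (22.2%, against 10.8%). Of 12 SLC22-type relatives 1 rose and 4 fell on average (41.7%, median -0.10), and in row_RNAi2 0 rose and 2 fell (16.7%). CG7442 (SLC22A) fell, with 17.5 ± 2.30, 8.77 ± 0.924 and 12.0 ± 1.77 CPM in control, row_RNAi1 and row_RNAi2 heads. The average log2 fold changes were -0.75 for CG7442, -0.52 for CG6126 and -0.53 for CG8654 (adjusted p = 0.000193, 2.76e-05 and 0.000194, edgeR). CG8654 lost its call with all knockdown libraries as 1 group (adjusted p = 0.177). By line, CG8654 was called in row_RNAi1 (-0.87, adjusted p = 7.03e-06, edgeR) and not in row_RNAi2 (-0.18, adjusted p = 0.308).

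Of 9 SLC17-type relatives 2 rose and 2 fell on average (44.4%, against 17.8% of all tested genes, median -0.23). In row_RNAi2 2 rose and 0 fell (22.2%, against 10.8%). CG3036 rose, with 64.5 ± 2.69, 130.1 ± 13.7 and 88.3 ± 5.99 CPM in control, row_RNAi1 and row_RNAi2 heads, an average log2 fold change of 0.73 (adjusted p = 1.19e-06, edgeR). Picot, a phosphate-transporter relative, fell on average by 0.29 on the log2 scale (adjusted p = 0.00302), and with all knockdown libraries as 1 group it was not called (adjusted p = 0.128). By line, Picot was called in row_RNAi1 (-0.44, adjusted p = 0.000523, edgeR) and not in row_RNAi2 (-0.15, adjusted p = 0.262).

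Of 14 sugar transporters of the SLC2 type 4 rose and 1 fell on average (35.7%, against 17.8% of all tested genes, median 0.00). In row_RNAi2 3 rose and 1 fell (28.6%, against 10.8%). CG8249 rose by 0.97 and CG10960 (nebu) by 0.60 (adjusted p = 5.67e-06 and 5.79e-06, edgeR). The trehalose transporter gene Tret1-1 was at 242 ± 5.27, 436.97 ± 15.04 and 243 ± 12.4 CPM in control, row_RNAi1 and row_RNAi2 heads. Its average of 0.43 (adjusted p = 6.31e-05, edgeR) was not called with all knockdown libraries as 1 group (adjusted p = 0.314).

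Of 12 SLC16-type monocarboxylate transporters 1 rose and 3 fell on average (33.3%, against 17.8% of all tested genes, median -0.02). In row_RNAi2 1 rose and 2 fell (25%, against 10.8%). CG8389 fell by 1.02 and Mct1 by 0.62 on the log2 scale (adjusted p = 6.95e-08 and 0.000468, edgeR). CG8468 rose by 0.46 (adjusted p = 0.0151) and without control replicate 3 was not called (0.28, adjusted p = 0.093). The 2 tested SV2-type genes were not called by edgeR, DESeq2 or limma (0 at an unadjusted p under 0.05), with -0.07 for CG3168 and 0.38 for CG4324 (adjusted p = 0.758 and 0.563, edgeR). Of 5 other major facilitator genes spin fell (20%, against 17.8% of all tested genes) and the rest were not called. CG12194 had -0.19 and CG1358 (HisT) 0.14. The gene spin encodes Spinster, a carrier of the lysosomal membrane. It had 93.1 ± 6.70, 36.2 ± 2.07 and 44.6 ± 7.13 CPM in control, row_RNAi1 and row_RNAi2 heads, an average log2 fold change of -1.21 (SE 0.09, adjusted p = 1.32e-08, edgeR).

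**Figure D4:**
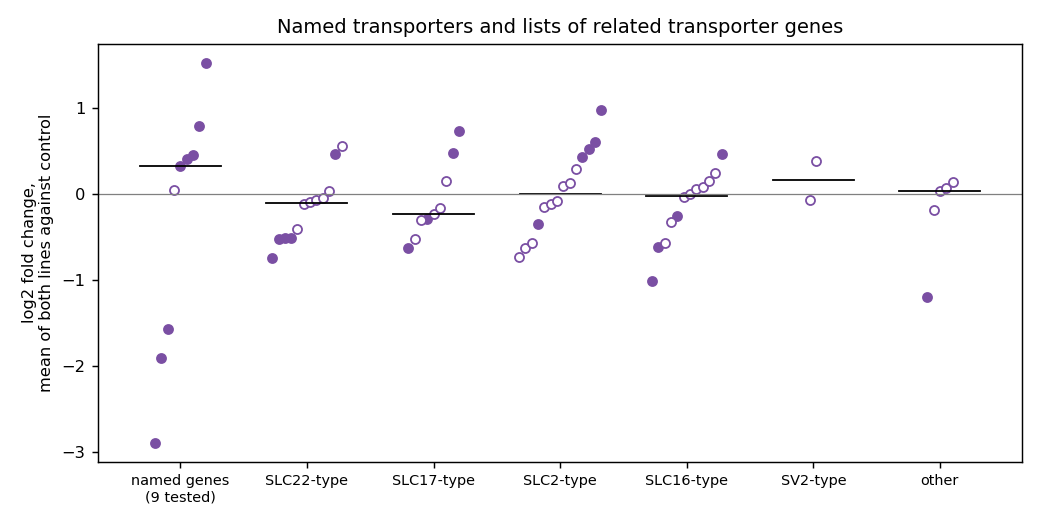
Average log2 fold change of both lines against control (vertical axis) for the 9 tested named transporters and for the tested genes of each list of relatives. Each point is a gene, filled where the adjusted p was under 0.05, and black lines are medians. The named genes reach from -2.89 to 1.52, and the lowest relative is spin at -1.21.

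Markers of the head were present, and some cell-type markers moved with the lines. Summed levels were 11688 to 11927 CPM in controls, 10278 to 10758 in row_RNAi1 and 9989 to 11629 in row_RNAi2 for 5 eye markers (0 higher and 1 lower on average). For 5 neuronal markers they were 545 to 576, 489 to 500.3 and 484 to 576 CPM (0 called by edgeR, DESeq2 or limma, 1 at an unadjusted p under 0.05), and for 4 glial markers 967 to 982, 759.7 to 762 and 793 to 928 CPM (1 lower). For 4 head fat body markers they were 32418 to 46482, 37275 to 46955 and 46876 to 57562 CPM (2 higher, 1 lower). For 5 muscle markers they were 2312 to 2481, 2923 to 3026 and 2518 to 2722 CPM (3 higher), and for 4 hemocyte markers 172 to 192, 207 to 216 and 146 to 148 CPM (1 lower). The 6 antennal markers had 31.1 to 75.1, 18.9 to 48.1 and 13.6 to 16.4 CPM (5 lower), with control replicate 2 and row_RNAi1 replicate 1 the lowest of their groups. No listed marker that was found was at 0 in all libraries, and 7 of 8 midgut and 4 of 4 Malpighian tubule markers were found, with summed levels of 17.0 to 23.5 CPM and 10.2 to 12.3 CPM over all libraries. Of these, 2 midgut markers and 1 tubule marker could be tested, and 0 were called by edgeR, DESeq2 or limma or had an unadjusted p under 0.05. In bulk heads, fewer cells of a type and less RNA per cell cannot be told apart, and the part of these shifts in the transporter results was not tested. The antennal sums of control replicates 1 to 3 were 57.4, 31.1 and 75.1 CPM. In the same libraries Orct2 stood at 22.1, 25.1 and 26.0 CPM, Orct at 89.0, 111 and 108, and MFS14 at 109.5, 135 and 132. Whether they vary together was not tested. 1 alternative setting, chosen after seeing the data, left out both control replicate 2 and row_RNAi1 replicate 1. Over all alternatives, this one among them, the average log2 fold change ran from -3.04 to -2.75 for Orct2. For Orct it ran from -1.66 to -1.49, and for MFS14 from -1.99 to -1.80.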

How the data were processed

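The authors deposited 1 table of raw counts per gene symbol for the 8 libraries, from RNAtag-Seq libraries as the labels' protocols describe them. The submitters' processing notes name STAR and the build dm3. The counting program, annotation and use of strand are not given in the sources used here, so overlapping genes may share reads. All 10 members matched the RefSeq table of the Release 6 assembly, a later build than dm3, which served for names, gene order and overlaps; orientation came from the Ensembl annotation of the same assembly, and no coordinates are given.

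Counts were fitted in R 4.3.3 with edgeR 4.0.16 (TMM, filterByExpr, quasi-likelihood F tests) in a 3-group model of all 8 libraries. Benjamini-Hochberg adjustment was over 9442 genes. The fit was tried on simulated counts with the same dispersion, set in advance, for every gene. Of log2 changes of 1 in either direction it called 69.9% in row_RNAi1, 84.9% in row_RNAi2 and 94.6% on average. The changed genes were above 5 CPM and changed alike in both lines. These rates thus do not cover lower genes such as MFS3, or changes that differ by line. False calls numbered 9, 2 and 12. SE were derived from the F statistic, and levels are CPM, not divided by length because reads come from 3′ ends, so levels are not ranked between genes. Alternatives used DESeq2 1.42.0, limma 3.58.1, other scalings and filters, fits on fewer libraries and a replicate block. No replicate pair agreed within sampling noise (ratios of chi-square to its degrees of freedom were 5.97 to 10.3).

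The members and the lists of relatives and markers were chosen with earlier results of these data known. The genes named were all members, row, the nearest counted gene on each side of a member, and up to 3 genes per list of relatives with the smallest p and at least 5 CPM; other named genes were chosen after their values were seen. Of 91 listed relatives 76 were found, and 1 listed symbol that belongs to another family was left out.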

Additional observations from a re-analysis of the deposited data

Results flagged for a closer look

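The response of 4 of 9 members differed between the lines by the direct test of row_RNAi2 minus row_RNAi1, against 11.3% of all tested genes. The log2 differences were -1.19 for MFS3, -0.54 for MFS10, 0.51 for MFS14 and -0.28 for MFS9 (edgeR quasi-likelihood adjusted p = 0.00216, 0.00064, 0.00516 and 0.0366). All 3 row_RNAi2 libraries lay below both row_RNAi1 libraries for MFS3, MFS10 and MFS9, and above both for MFS14. The call of MFS9 was lost under most of its alternatives and that of MFS14 without row_RNAi1 replicate 1. Those of MFS3 and MFS10 held under all alternatives run for each. The groups of 2 and 3 libraries were too small to look for single libraries far from the rest.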

How the results depend on the processing

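The 4 counts of members called and the row log2 fold change had 85 alternative values together, and 83 were taken as unchanged. For a count this meant staying within 1.5 times, so a fall from 6 to 4 members in row_RNAi2 passed. Leaving out each library in turn gave 6 to 8 members in row_RNAi1, 4 to 6 in row_RNAi2, 7 to 8 on average and 2 to 4 between the lines. DESeq2 called 4 members in row_RNAi2, 1 higher and 3 lower, where it called 9.64% of all tested genes. Fits without 1 control or 1 row_RNAi2 library called 17.7% to 22.7% of all tested genes in row_RNAi1 and 8.31% to 9.85% in row_RNAi2. They called 13.9% to 18.6% on average and 9.04% to 11.7% between the lines. Fits without 1 row_RNAi1 library, which leave 1 in that group, called a smaller share of all tested genes than the main fit in each comparison. The count between the lines was 2 without row_RNAi1 replicate 1, and 2 with control replicate 2 left out as well, a setting chosen after seeing the data. Scaling to total counts alone moved the median change of all genes on the log2 scale to -0.15 in row_RNAi1, -0.05 in row_RNAi2 and -0.10 on average.

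Values near 0 changed sign. MFS17 had -0.12 in row_RNAi1 and -0.042 on average on total counts alone, and left-out libraries gave it -0.0060 to 0.067 in row_RNAi1, -0.0061 to 0.13 in row_RNAi2 and -0.027 to 0.11 between the lines. On total counts alone jar had 0.00 (-0.00021) and CG9317 -0.055, and CG9317 ran from -0.059 to 0.14 over its alternatives. CG3168 had 0.00 (0.0036) with control replicate 2 and row_RNAi1 replicate 1 left out. With all 5 knockdown libraries as 1 group 6 members were called on average, and MFS10 (adjusted p = 0.134) and MFS15 (0.0506) were not. The cause was not tested. That grouping called 834 of all tested genes (9%), against 1680 (17.8%). With a minimum mean of 5 CPM MFS3 was not tested, and with 13 counts in all libraries MFS12 was tested only without the filter on low counts.

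Libraries that share a number did not pair, with correlations of -0.08 to 0.07 over 7 pairs (-0.07 to 0.08 over 14 pairs with different numbers). These are correlations of deviations from group means. Those of row_RNAi1 replicates 1 and 2 therefore mirror each other, and the ranges are not independent. With the replicate block 7, 5, 8 and 3 members were called in row_RNAi1, row_RNAi2, on average and between the lines. The shares of all tested genes called there were 19.2%, 9.94%, 16.5% and 10.5%. MFS17 in row_RNAi1 had -0.015 with the block.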

Other observations

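MFS18 and 2 carriers known from photoreceptor transmitter recycling, chosen after their values were seen, were not called on average over the lines. MFS18, an SLC17-type gene, stood at 12.4 ± 2.26, 11.4 ± 0.88 and 8.94 ± 0.618 CPM in control, row_RNAi1 and row_RNAi2 heads. Its average log2 fold change was -0.31 (SE 0.13, adjusted p = 0.126, edgeR), and it passed without control replicate 1 (-0.44, adjusted p = 0.0273) and on total counts alone (-0.39, adjusted p = 0.0426), within a range of 0.0273 to 0.696 over its alternatives. CG9317 (CarT), a carcinine transporter of photoreceptors, stood at 13.8 ± 2.14, 13.4 ± 0.399 and 14.9 ± 0.899 CPM in control, row_RNAi1 and row_RNAi2 heads. CG3790 (Balat), a beta-alanine transporter, stood at 25.6 ± 2.45, 19.97 ± 2.66 and 28.2 ± 5.38 CPM in control, row_RNAi1 and row_RNAi2 heads. It differed between the lines by the direct test (adjusted p = 0.0258, edgeR), while neither line passed against control (adjusted p = 0.0706 and 0.668). MFS1 had 2 counts over all libraries.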
